A study of Homo sapiens with 6 samples.

Results

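A set of 10 genes that carry nutrient and stress signals to the kinase complex mTORC1 was measured in SNU449, an established line of human liver cancer cells (hepatocellular carcinoma). They are the sestrins SESN1, SESN2 and SESN3, the GATOR1 subunits DEPDC5, NPRL2 and NPRL3, the GTPases RRAGC and RRAGD, and the TSC subunits TSC1 and TSC2. The 10 genes were taken by name from the 13117 rows of the deposited log2 FPKM table (fragments scaled to transcript length and library size), all 10 are in it, and all 10 passed the filter on low values. SESN1 and SESN3 passed it only through the libraries from cells given doxycycline. Every library came from cells that carried pInducer20-FOXO1AAA, a doxycycline-inducible construct for FOXO1 with its AKT phosphorylation sites replaced. The 3 Cont libraries are from cells given no doxycycline, and the 3 Dox libraries from cells given 2 μM doxycycline hydrochloride for 48 hours. The labels give the genotype as WT, and do not tell separate cultures from repeat libraries, so the spread behind each p-value is that between these samples and may be technical. Both groups hold the construct and no library received the drug without it, so effects of doxycycline and of the induced protein cannot be told apart. In bulk samples, fewer cells with a transcript and less of it per cell cannot be told apart either.

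As background, mTORC1 is recruited by amino acids to the lysosome surface, where heterodimers of RRAGA or RRAGB with RRAGC or RRAGD hold it, and it is switched on there by the small GTPase RHEB. GATOR1 is the GTPase-activating complex that turns off RRAGA and RRAGB, GATOR2 opposes GATOR1, and sestrins bind GATOR2 when leucine is scarce. The TSC complex is the GTPase-activating complex for RHEB. Sestrins, GATOR1 and TSC are therefore brakes on mTORC1, whereas the Rag GTPases take part in its activation, and sestrin genes are known targets of ATF4 and of FOXO factors.

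Depth is not stated, and was read from the values. The lowest values of 307 genes showed that a constant number of reads had been added to every gene before the logarithm, worth 1.58 to 2.62 reads per library, and that the libraries differed in depth from 0.79 to 1.31 times their mean. With that offset, the values of each of the 10 genes gave whole numbers of reads in all 6 libraries, and these are given beside the levels. As a check of the label, 6 of 7 epithelial and mesenchymal markers were read. Vimentin (VIM) was at 901 to 915 FPKM in Cont and 265 to 329 in Dox. KRT8 fell from 65.5 ± 2.93 to 23.3 ± 1.26 FPKM, KRT18 from 58.9 ± 2.11 to 10.3 ± 2.08 and CDH2 from 44.2 ± 0.773 to 21.1 ± 2.17 (SD, n = 3). FN1 went the other way, from 1.37 ± 0.483 to 7.585 ± 0.507, and CDH1 was too low to be tested. Albumin (ALB), the defining hepatocyte product, was at 0.0941 to 0.571 in Cont and 0.85 to 1.71 in Dox, so these cells hold little of it. AFP, the fetal counterpart of albumin, was at 7.34 to 17.1 in Cont and 4.65 to 8.62 in Dox (log2 change -0.95, limma adjusted p = 0.0114). Of the hepatocyte markers only 2 of 8 (ALB and AFP) were analysed here, of the immune markers 1 of 6, and of the endothelial markers 2 of 5, with summed levels of at most 2.38 and 0.975 FPKM for the last 2 lists. Fibroblast markers (4 of 6) summed to 208 to 237 FPKM in Cont and 175 to 218 in Dox, but went apart: COL1A1 fell 3.99-fold and COL1A2 4.53-fold, COL3A1 rose 23.9-fold, and PDGFRA was at its lowest listed value in Cont and at 0.419 to 1.21 FPKM in Dox. Their part in the results was not tested. The mRNAs of the mitochondrial genome took 3.0% to 4.67% of the summed FPKM in Cont and 13.2% to 14.7% in Dox, which lowers the FPKM of every other gene in Dox. The median log2 change of all tested genes was -0.06 in FPKM, 0.0396 after rescaling to TPM and 0.19 in TPM with these mRNAs left out.

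All 3 sestrin mRNAs rose in Dox, the 3 TSC and Rag genes TSC1, TSC2 and RRAGC rose by less, and the GATOR1 genes split. In the limma fit over 11526 tested genes (adjusted p under 0.05), 8 of the 10 genes were higher in Dox and 2, NPRL2 and RRAGD, were lower. Of all tested genes 80.4% passed, 37.6% as higher and 42.8% as lower, so passing the test is common here and the count of 10 of 10 is read against that. The values of the 2 groups did not overlap for any of the 10 genes, as for 82.1% of all tested genes. The median log2 change of the 10 genes was 0.59, against -0.06 over all tested genes, and only those of SESN1, SESN2 and SESN3 exceeded 1. A log2 change is the Dox mean less the Cont mean of log2(FPKM + 1). Adding 1 shrinks the change of genes at low levels. A mean ± SD is over 3 libraries.

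**Figure D1:**
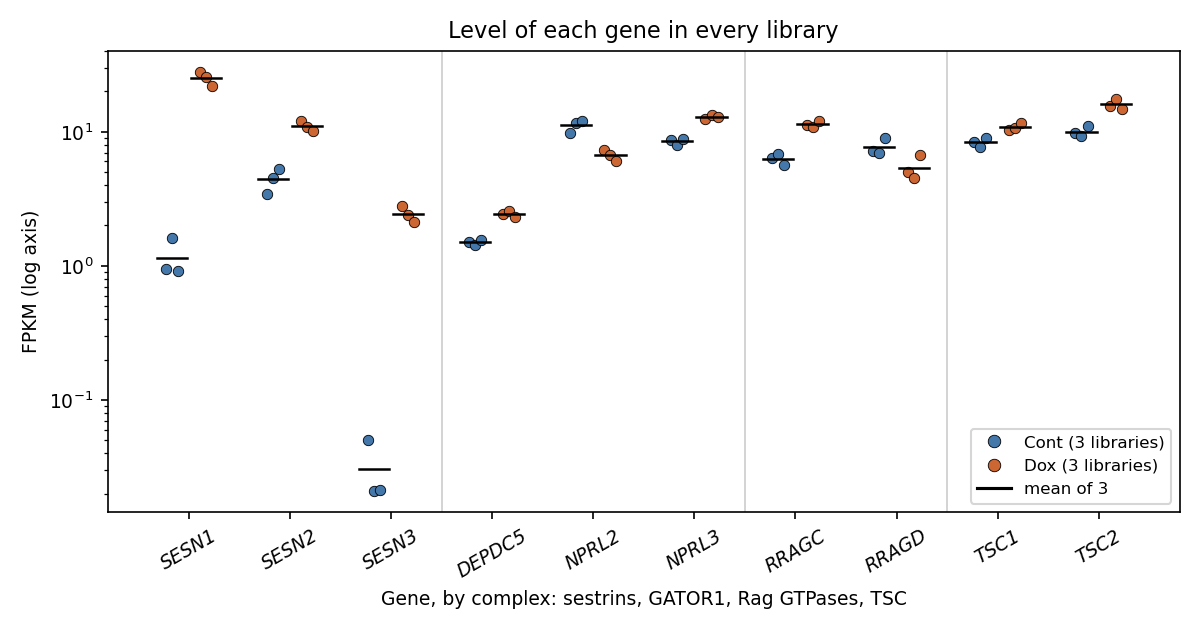
Level of each of the 10 genes in FPKM on a log axis, with 1 point per library (blue Cont, orange Dox) and a line at the mean of the 3 libraries of a group. The gap between groups is widest for SESN3 and SESN1, and NPRL2 and RRAGD are the 2 genes with Dox below Cont.

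SESN1 (chromosome 6, 108986437 to 109094819, minus strand, GRCh38) encodes a stress-induced sestrin known as a FOXO target. It stood at 0.949, 1.60 and 0.909 FPKM in Cont and at 28.1, 25.5 and 21.8 in Dox. Every Dox library was more than 10 times above every Cont library. These levels rest on 93, 231 and 106 reads in Cont and on 4636, 2991 and 2397 reads in Dox. The means were 1.15 ± 0.388 and 25.1 ± 3.14 FPKM (SD, n = 3), 21.8-fold apart (change 3.61 in log2, SE 0.14, adjusted p = 1.13e-08 by limma), and 57 of the 11526 tested genes rose further.

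SESN2 (chromosome 1, 28259527 to 28282491, plus strand), the sestrin best known as a leucine sensor and as a target of ATF4, was the most abundant of the 3 in Cont. Its levels were 3.44, 4.52 and 5.25 FPKM in Cont and 12.02, 10.8 and 10.2 in Dox, from 337 to 648 and 1107 to 1958 reads. The rise was 2.503-fold (log2 change 1.17, SE 0.13, limma adjusted p = 1.60e-05), well below that of SESN1, and 26.7% of tested genes changed by more in either direction.

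SESN3 (chromosome 11, 95165513 to 95232541, minus strand), a sestrin known from work on FOXO factors, was close to undetected in Cont. Its levels were 0.05001, 0.0209 and 0.0213 FPKM in Cont, which stand for 12, 6 and 5 reads, and 2.81, 2.39 and 2.11 in Dox, which stand for 1263, 763 and 632 reads. The added offset made up as much as 27.8% of a Cont value, so the fold change depends on how it is treated. Mean FPKM as deposited rose 79.3-fold, and reads per unit of depth, with the offset taken off, rose 97.6-fold. The log2 change with 1 FPKM added was 1.73 (SE 0.12, limma adjusted p = 5.00e-07), against 4.28 with 0.1 FPKM added and 6.43 on the deposited log2 values. Even so, SESN3 stayed the lowest sestrin in Dox, at 2.44 ± 0.35 FPKM against 25.1 for SESN1.

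The sestrins therefore changed places. In Cont SESN2 made up 77.5%, 73.6% and 85.0% of the summed sestrin FPKM and SESN1 21.4%, 26.1% and 14.7%. In Dox SESN1 made up 65.4%, 65.8% and 63.9% and SESN2 28.0%, 28.0% and 29.9%. The SESN3 share went from 0.341% to 1.13% in Cont up to 6.17% to 6.55% in Dox. FPKM is per length, so levels of different genes can be set side by side, and a share or ratio inside a library does not depend on how libraries are scaled. The ratio of SESN1 to SESN2 was 0.276, 0.354 and 0.173 in Cont and 2.33, 2.35 and 2.13 in Dox, a log2 difference of 3.15, with no overlap. A total of 4 such ratios was tested, and for each of them the exact two-sided permutation test of 3 against 3 gave p = 0.1 (adjusted p = 0.1), the smallest it allows. For SESN3 to SESN2 the log2 difference was 5.09, but 0.57 with 1 FPKM added to both genes, since SESN3 is near its floor in Cont. The summed sestrin level was 5.59 ± 0.992 FPKM in Cont and 38.6 ± 4.37 in Dox (SD, n = 3), 6.90-fold higher.

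**Figure D2:**
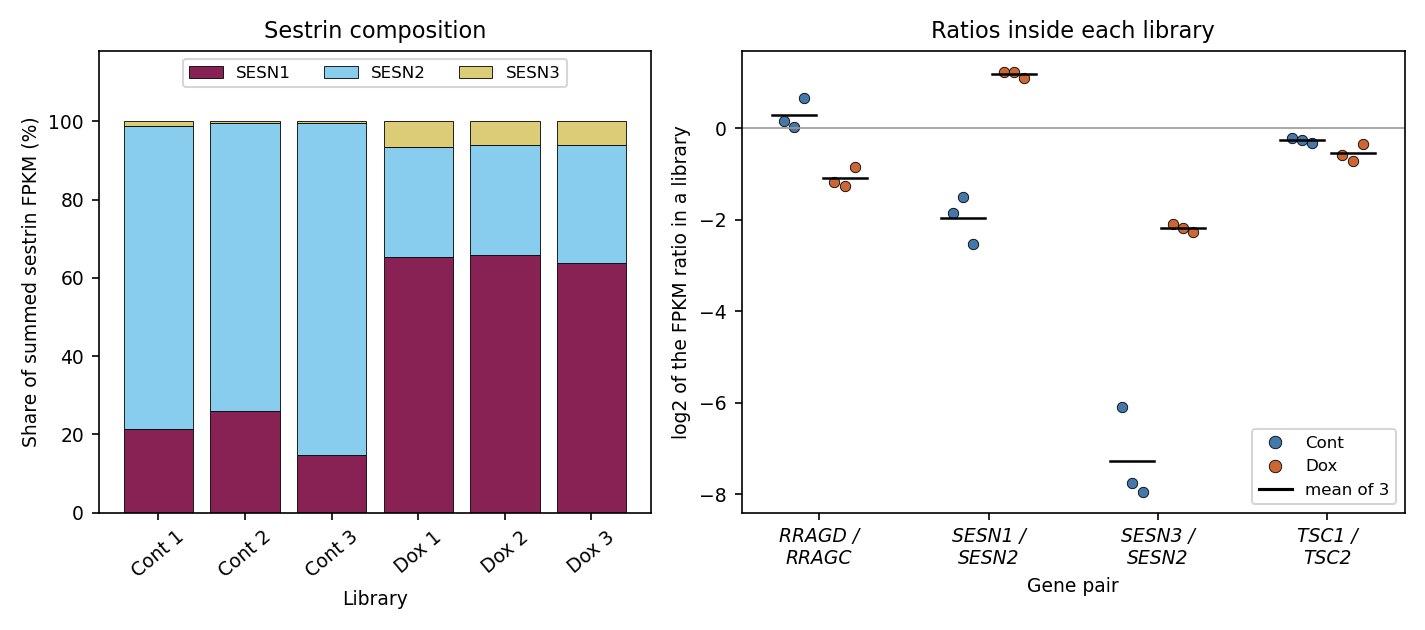
Left, share of each sestrin in the summed sestrin FPKM of a library, in percent, 1 bar per library. Right, log2 of the FPKM ratio of 4 gene pairs, 1 point per library with the mean of 3. SESN2 is the largest share in the 3 Cont libraries and SESN1 in the 3 Dox libraries, and the RRAGD to RRAGC ratio lies below 0 on the log2 scale in the Dox libraries alone.

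Since the 3 sestrin genes all rose in Dox, the 250 bases before their annotated starts were searched on both strands for GTAAACA, the sequence FOXO proteins are known to bind, and for its variant GTAAATA, also a forkhead sequence. The search took in CACGTG, the core of the sites of the MiT/TFE factors that act on lysosomal genes, and TGATGNAA, the element bound by ATF4 dimers. RefSeq windows (GRCh38.p14) were found for 9 of the 10 genes, 14 windows in all, and RRAGD had no entry. GTAAACA was in none of the 14, and is in 2.98% of the 35116 windows of all genes. GTAAATA was in 1 window, that of the SESN1 start at 109008988, 68 to 62 bases before it, and is in 2.39% of all windows. The 4 motifs were chosen after the windows had been read, so a match could be foreseen and setting it beside the share of all windows tests nothing. The same holds for the RRAGC and TSC2 windows below. That window (chr6:109008989-109009238, minus strand) and those before the starts of SESN2 (chr1:28259268-28259517, plus strand) and SESN3 (chr11:95232542-95232725, minus strand, up to the annotated UTR) are shown 5′ to 3′ so that the sestrin starts can be compared. Capitals mark a match to a searched motif.
SESN1: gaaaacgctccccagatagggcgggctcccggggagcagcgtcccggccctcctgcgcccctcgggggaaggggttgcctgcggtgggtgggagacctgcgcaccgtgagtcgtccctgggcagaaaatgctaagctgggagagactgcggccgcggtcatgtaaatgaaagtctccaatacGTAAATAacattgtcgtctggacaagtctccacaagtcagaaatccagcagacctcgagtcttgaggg
SESN2: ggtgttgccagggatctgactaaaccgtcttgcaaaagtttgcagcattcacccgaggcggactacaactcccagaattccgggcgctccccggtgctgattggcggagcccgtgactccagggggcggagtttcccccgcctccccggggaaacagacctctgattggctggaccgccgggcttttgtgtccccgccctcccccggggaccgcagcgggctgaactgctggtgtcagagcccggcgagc
SESN3: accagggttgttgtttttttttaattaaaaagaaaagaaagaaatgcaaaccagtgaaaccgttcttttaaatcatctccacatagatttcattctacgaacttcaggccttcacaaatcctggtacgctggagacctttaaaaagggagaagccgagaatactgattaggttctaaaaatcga
The SESN2 and SESN3 windows held none of the 4 motifs, and neither did the windows of the other SESN1 starts. A match describes letters in a window and not a bound site, the lack of one says only that these letters are not in these bases, and the table does not tell which SESN1 start the reads came from.

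Within GATOR1 the mRNAs went in opposite directions. NPRL2 (chromosome 3, 50347330 to 50351091, minus strand), which with NPRL3 forms the arm of the complex that carries its GTPase-activating activity, was at 9.72, 11.6 and 12.1 FPKM in Cont and at 7.33, 6.67 and 6.07 in Dox (452 to 791 and 311 to 565 reads). It fell 1.67-fold (log2 change -0.66, SE 0.10, limma adjusted p = 0.00023). NPRL3 (chromosome 16, 84271 to 138860, minus strand), its partner, was at 8.65, 7.97 and 8.77 FPKM in Cont and rose to 12.5, 13.4 and 12.9 in Dox (715 to 964 and 1174 to 1719 reads). The rise was 1.53-fold (log2 change 0.56, SE 0.08, limma adjusted p = 9.70e-05). NPRL2 was thus above NPRL3 in every Cont library and below it in every Dox library. DEPDC5 (chromosome 22, 31753867 to 31908033, plus strand), the subunit that binds the Rag GTPases, was the lowest of the 3, at 1.502, 1.44 and 1.57 FPKM in Cont and 2.42, 2.56 and 2.31 in Dox (220 to 308 and 375 to 590 reads). Its 1.62-fold rise (change 0.46 in log2, SE 0.10, adjusted p = 0.00181 by limma) did not pass after quantile normalization (0.19, limma adjusted p = 0.101).

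Some reads of GATOR1 genes may belong to neighbours, since strand use in counting was not given in the sources used here. CYB561D2, on the opposite strand, shares 397 exon bases with NPRL2 (10.8% of its exon bases in GENCODE 29) and went from 9.13 ± 0.882 to 6.66 ± 0.686 FPKM (SD, n = 3). MPG shares 453 bases (6.85%) with NPRL3 and moved the other way, from 8.73 ± 0.961 to 6.31 ± 0.794. On the same strand, where a stranded count would not separate them, Z82190.2 shares 1809 bases (10.4%) with DEPDC5. The part of shared reads in the values of these genes was not tested.

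RRAGC and RRAGD, alternative partners of RRAGA and RRAGB whose products are also what directs mTORC1 to the MiT/TFE factors, went apart. RRAGC (chromosome 1, 38838198 to 38859823, minus strand) was at 6.40, 6.81 and 5.66 FPKM in Cont and 11.2, 10.9 and 12.1 in Dox (486 to 756 and 974 to 1418 reads). It rose 1.81-fold (log2 change 0.77, SE 0.09, limma adjusted p = 2.81e-05). The processed transcript AL139260.2 shares 1183 exon bases on the same strand (22.9% of those of RRAGC), and its part in the RRAGC value was not tested. RRAGD (chromosome 6, 89364636 to 89412270, minus strand) was at 7.14, 6.93 and 8.95 FPKM in Cont and at 4.98, 4.54 and 6.69 in Dox (997 to 1488 and 747 to 1153 reads). The highest Dox library lay just under the lowest Cont library. The fall was 1.42-fold (log2 change -0.44, SE 0.14, limma adjusted p = 0.0143). It was the least stable of the 10 calls, and did not pass in TPM (-0.36, limma adjusted p = 0.0548), in TPM without mitochondrially encoded genes (-0.22, 0.230), without Cont replicate 3 (-0.34, 0.0584) or without Dox replicate 2 (-0.35, 0.0576).

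Set against RRAGC in the same library, which removes scaling, RRAGD went from 1.12, 1.02 and 1.58 times RRAGC in Cont to 0.443, 0.418 and 0.552 times in Dox. The log2 difference was -1.38, from 0.28 ± 0.336 to -1.10 ± 0.212 (SD, n = 3; exact permutation p = 0.1, adjusted p = 0.1). RRAGD was thus the more abundant in the 3 Cont libraries and RRAGC in the 3 Dox libraries. The RRAGC window before its start holds a CACGTG, 112 to 107 bases upstream, a motif found in 6.34% of all windows. It is printed here from chr1:38859824-38860022 (minus strand, up to the annotated UTR), since RRAGC is a known target of the MiT/TFE factors.
RRAGC: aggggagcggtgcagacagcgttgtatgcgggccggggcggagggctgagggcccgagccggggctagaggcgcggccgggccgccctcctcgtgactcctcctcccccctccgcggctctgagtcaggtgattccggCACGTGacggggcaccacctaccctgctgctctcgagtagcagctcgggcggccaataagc

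Both TSC genes rose modestly. TSC1 (chromosome 9, 132891348 to 132946874, minus strand), the stabilising scaffold hamartin, was at 8.36, 7.74 and 8.92 FPKM in Cont and 10.3, 10.7 and 11.7 in Dox (1484 to 2010 and 2232 to 3030 reads). The 1.30-fold rise (change 0.35 in log2, SE 0.09, adjusted p = 0.0046 by limma) was the smallest of the 10 changes, and 72.1% of tested genes changed by more. TSC2 (chromosome 16, 2047465 to 2089487, plus strand), tuberin, the catalytic subunit, was at 9.75, 9.24 and 11.1 FPKM in Cont and 15.5, 17.5 and 14.9 in Dox (1775 to 2461 and 2988 to 4691 reads), 1.59-fold higher (log2 change 0.62, SE 0.10, limma adjusted p = 0.00017). The ratio of TSC1 to TSC2 was 0.857, 0.837 and 0.804 in Cont and 0.662, 0.608 and 0.785 in Dox, a log2 difference of -0.29 with no overlap (exact permutation p = 0.1, adjusted p = 0.1). The gap between Cont replicate 3 and Dox replicate 3 in this ratio is narrow. PKD1, on the opposite strand, shares 778 exon bases with TSC2 (3.96%) and was at 4.22 ± 0.595 and 5.64 ± 0.454 FPKM (SD, n = 3), and NTHL1, also opposite, shares 402 bases (2.05%) and fell from 23.3 ± 1.67 to 10.5 ± 1.18. Their part in the TSC2 value was not tested.

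The window before the TSC2 start at 2047985 was the only 1 of the 14 with matches to both CACGTG and TGATGNAA, and the matches overlap. CACGTG alone is in 6.34% of all windows and TGATGNAA alone in 3.14%, and the share with both was not counted. The 2 matches lie 114 to 103 bases before that start, within bases annotated as UTR, so 30 bases are shown (chr16:2047862-2047891, plus strand).
TSC2: cggccccgtCACGTGATGCAAggatcgccg

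In order of level, NPRL2 led in Cont at 11.1 ± 1.25 FPKM, followed by TSC2, NPRL3, TSC1, RRAGD, RRAGC, SESN2, DEPDC5, SESN1 and SESN3. Neighbours whose libraries overlapped were NPRL2 with TSC2, NPRL3 with TSC1, TSC1 with RRAGD, and DEPDC5 with SESN1. In Dox SESN1 was at the top, followed by TSC2, NPRL3, RRAGC, SESN2, TSC1, NPRL2, RRAGD, SESN3 and DEPDC5. Overlap there was between RRAGC and SESN2, SESN2 and TSC1, NPRL2 and RRAGD, and SESN3 and DEPDC5. SESN1 moved from rank 9 of 10 to rank 1, and NPRL2 from rank 1 to rank 7.

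The profiles most like those of SESN1 and SESN3, the genes with the largest changes, were found by the root-mean-square difference of centred log2(FPKM + 1) values over the 6 libraries. For SESN1 they were FRZB (0.12), UBE2D1 (0.127) and PAQR3 (0.148), which went from 0.42 ± 0.116 to 16.8 ± 0.753, from 13.5 ± 1.01 to 195 ± 14.95 and from 39.3 ± 2.54 to 471 ± 9.16 FPKM (SD, n = 3). For SESN3 they were GFPT2 (0.0387), DHX8 (0.0514) and CCDC186 (0.0622). These went from 0.244 ± 0.0321 to 3.16 ± 0.538, from 234 ± 7.37 to 809 ± 56.4 and from 3.54 ± 0.0383 to 13.1 ± 1.40 FPKM (SD, n = 3). SESN3 itself rose 79.3-fold in FPKM, so the likeness holds on the scale with 1 FPKM added, which shrinks changes at low levels.

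Around these 10 genes, 55 other genes of the pathway were taken from a list, and 52 of them were tested. Of the 52, 18 were higher and 24 lower in Dox and 10 did not pass, with a median log2 change of -0.13 against -0.06 over all tested genes. Among all tested genes 37.6% were higher and 42.8% lower. The split depends on scaling: in TPM without mitochondrially encoded genes 24 were higher and 13 lower, and among all genes 47.6% were then higher and 33.1% lower. The partners of the Rag GTPases went the way of RRAGC. RRAGA rose from 52.7 ± 3.68 to 69.7 ± 2.89 FPKM (log2 change 0.40, limma adjusted p = 0.00062) and RRAGB from 9.26 ± 0.945 to 18.6 ± 1.41 (0.93, limma adjusted p = 8.20e-06; SD, n = 3). RRAGD was thus the only one of the 4 Rag genes whose level was lower in Dox.

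**Figure D3:**
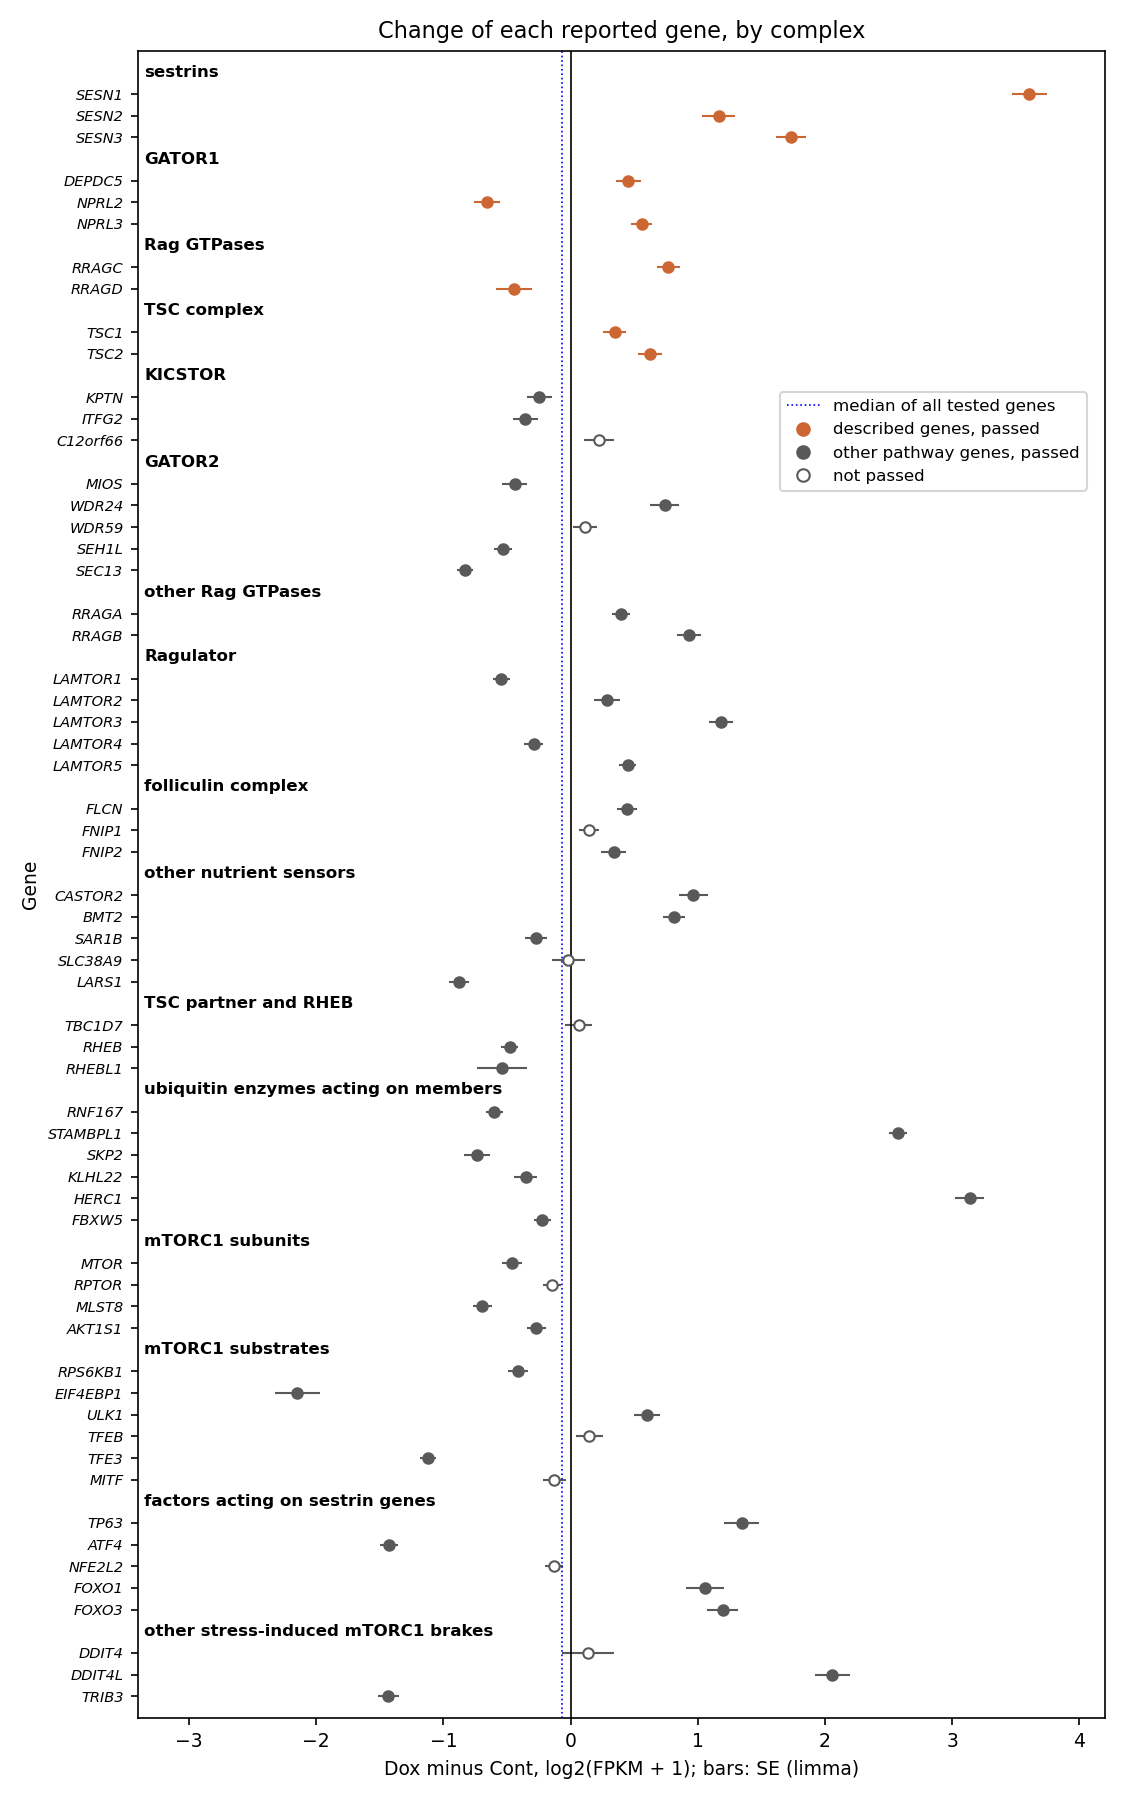
Log2 change (Dox minus Cont, log2(FPKM + 1)) with its SE for the 10 genes (orange) and the other reported genes of the pathway (grey), grouped by complex, with open symbols for genes that did not pass and a dotted line at the median of all tested genes. Sestrins lie furthest right among the orange points, and HERC1 and STAMBPL1 furthest right among the grey.

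Complexes next to GATOR1 were mixed. Of the 5 genes of GATOR2, the complex that sestrins bind, MIOS (log2 change -0.44), SEH1L (-0.53) and SEC13 (-0.83) were lower, WDR24 (0.74) was higher and WDR59 (0.11) did not pass, though it did with the mitochondrially encoded genes left out of TPM (0.38, limma adjusted p = 0.00731). SEH1L and SEC13 also encode nucleoporins, and MIOS did not pass when genes of the mitochondrial genome were left out of TPM (limma adjusted p = 0.0824). Among genes of KICSTOR, which tethers GATOR1 to lysosomes, KPTN (-0.24) and ITFG2 (-0.35) were lower. Under TPM without mitochondrially encoded genes KPTN was at 0.0128 and ITFG2 at -0.16 (limma adjusted p = 0.909 and 0.197). The KPTN call also ended in TPM (-0.14, limma adjusted p = 0.197), with median-of-ratios scaling (-0.18, 0.119), under quantile normalization (-0.20, 0.0971) and without the filter (-0.24, 0.0522). It ended too when either Cont replicate 1 or 2 or Dox replicate 2 or 3 was left out (-0.19, -0.22, -0.23 and -0.19). C12orf66 (0.22) did not pass, but was higher in TPM (0.34, limma adjusted p = 0.0327), in TPM with the mitochondrially encoded genes left out (0.49, 0.00727), with median-of-ratios scaling (0.28, 0.0489) and without Dox replicate 3 (0.35, 0.00803).

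All 5 Ragulator genes, whose products anchor the Rag GTPases to the lysosome, passed the test, in both directions, where 80.4% of all tested genes passed. LAMTOR3 rose from 5.97 ± 0.698 to 14.8 ± 0.642 FPKM (SD, n = 3; log2 change 1.18), LAMTOR5 (0.45) and LAMTOR2 (0.29) rose by less, and LAMTOR1 (-0.54) and LAMTOR4 (-0.29) were lower. The calls of LAMTOR2 and LAMTOR4 were not stable: LAMTOR2 did not pass without Cont replicate 3 (0.19, limma adjusted p = 0.0819), Dox replicate 1 (0.27, 0.0739) or Dox replicate 2 (0.23, 0.102), and LAMTOR4 moved to -0.0129 in TPM without mitochondrially encoded genes (0.861) and at -0.0524 under quantile normalization (0.458). FLCN, the GTPase-activating protein for RRAGC and RRAGD, was higher (0.45), as was its partner FNIP2 (0.34), while FNIP1 (0.15) did not pass. FNIP1 was higher in TPM (0.26, limma adjusted p = 0.013), in TPM with the mitochondrially encoded genes left out (0.42, 0.000916) and with median-of-ratios scaling (0.21, 0.0281), and FNIP2 was at 0.0827 under quantile normalization (limma adjusted p = 0.455).

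Among genes listed with other nutrient sensors, CASTOR2 rose from 0.558 ± 0.0452 to 2.05 ± 0.261 FPKM (SD, n = 3, log2 change 0.97). BMT2, which encodes the S-adenosylmethionine sensor SAMTOR, rose from 3.61 ± 0.182 to 7.12 ± 0.0542 FPKM (SD, n = 3, log2 change 0.82). LARS1, the leucyl-tRNA synthetase, was lower (-0.88). SAR1B (-0.27) was lower, but did not pass in TPM (limma adjusted p = 0.117), in TPM without mitochondrially encoded genes (0.865) or with median-of-ratios scaling (0.0534). It did not pass either without Cont replicate 2 (limma adjusted p = 0.0517), Dox replicate 1 (0.0556) or Dox replicate 2 (0.0611). The lysosomal arginine carrier gene SLC38A9 (-0.02) did not pass, and CASTOR1 was too low to be tested. RHEB, the GTPase on which TSC acts, was lower, from 92.5 ± 1.18 to 66.2 ± 3.84 FPKM (change -0.48 in log2, adjusted p = 8.28e-05 by limma; SD, n = 3), as was RHEBL1 (-0.54), although that call ended without Cont replicate 2 (-0.39, limma adjusted p = 0.118), Cont replicate 3 (-0.48, 0.0934) or Dox replicate 3 (-0.39, 0.1097). The TSC partner TBC1D7 (0.07) did not pass, though it did with the mitochondrially encoded genes left out of TPM (0.32, limma adjusted p = 0.0261).

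Among enzymes known to add or remove ubiquitin on the proteins of this pathway, 2 of 6 tested rose and 4 fell. Of all tested genes 80.4% passed, 37.6% as higher and 42.8% as lower. HERC1, the ubiquitin ligase known to destabilise tuberin, rose from 4.41, 4.28 and 5.09 FPKM in Cont to 51.5, 54.1 and 40.01 in Dox (log2 change 3.14, SE 0.12, limma adjusted p = 9.53e-09). STAMBPL1, a deubiquitinase known to act on the SESN2 protein, rose from 12.4, 11.3 and 12.2 to 76.4, 72.1 and 79.8 (2.57, SE 0.07, limma adjusted p = 2.13e-09). The groups are far apart for both. RNF167, the ligase for SESN2, was lower (-0.60), as were SKP2, a ligase for RRAGA (-0.74), KLHL22, an adaptor for the breakdown of DEPDC5 (-0.35), and FBXW5, an adaptor acting on tuberin (-0.22). In TPM without mitochondrially encoded genes KLHL22 was at -0.12 (limma adjusted p = 0.302) and FBXW5 at 0.0526 (0.458). FBXW5 also did not pass in TPM (-0.11, limma adjusted p = 0.138) or with median-of-ratios scaling (-0.15, 0.0555). Nor did it pass under quantile normalization (-0.0442, limma adjusted p = 0.527) or without Dox replicate 1 (-0.18, 0.0517). RNF152 was too low to be tested.

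Of the transcription factors known to act on sestrin genes, ATF4 was at 154, 166 and 149 FPKM in Cont and 56.3, 56.0 and 59.7 in Dox (log2 change -1.43, limma adjusted p = 4.04e-08). FOXO3 (1.196) and FOXO1 (1.06) rose, and whether reads of the construct count toward FOXO1 cannot be told from the table. These are mRNA levels, and whether any of these factors acted on the sestrin genes here was not tested. TP63 rose from 0.284 ± 0.11 to 2.27 ± 0.454 FPKM (SD, n = 3; 1.34), and NFE2L2 (-0.13) passed without Cont replicate 3 (-0.18, limma adjusted p = 0.0174), did not pass in the whole set, and was higher in TPM without mitochondrially encoded genes (0.15, 0.0381) and after quantile normalization (0.16, 0.0314). Among other stress-induced brakes of mTORC1, DDIT4L rose from 0.522 ± 0.201 to 5.33 ± 0.733 (2.06), its relative DDIT4 (0.14) did not pass except without Cont replicate 3 (0.39, limma adjusted p = 0.0399), and TRIB3, a known target of ATF4, was lower (-1.43).

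Downstream, 3 of 4 tested mTORC1 subunit genes were lower, as were 42.8% of all tested genes. They were MTOR (-0.46), MLST8 (-0.69) and AKT1S1 (-0.27), while RPTOR (-0.15) did not pass. In TPM without mitochondrially encoded genes MTOR was at -0.19 (limma adjusted p = 0.07) and AKT1S1 at -0.000998 (0.991). AKT1S1 also did not pass in TPM (-0.16, limma adjusted p = 0.0739) or under quantile normalization (-0.16, 0.0572). DEPTOR was too low to be tested. Of the substrates, EIF4EBP1 was lower (-2.15), as were TFE3 (-1.12) and RPS6KB1 (-0.41), the last at -0.15 without mitochondrially encoded genes (limma adjusted p = 0.0836), while ULK1 was higher (0.60). TFEB (0.15) and MITF (-0.13), which like TFE3 are controlled through RRAGC and RRAGD, did not pass. With the mitochondrially encoded genes left out of TPM, TFEB was higher (0.41, limma adjusted p = 0.0097), and without Cont replicate 3 MITF was lower (-0.21, 0.0327).

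Under 5 scalings the direction of all 10 genes was the same. The sestrin changes ranged from 3.49 to 4.14 for SESN1, from 1.13 to 1.49 for SESN2 and from 1.45 to 2.44 for SESN3, and NPRL2 stayed lower at -0.43 or less.

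**Figure D4:**
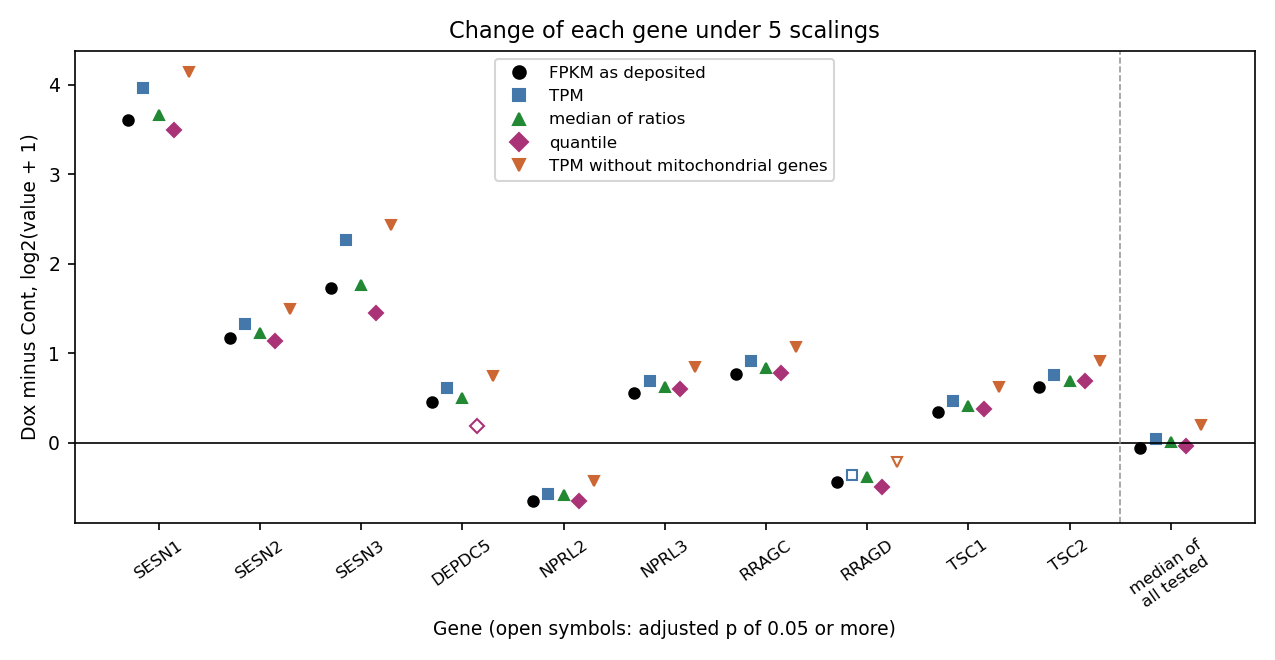
Log2 change of each of the 10 genes under 5 scalings of the libraries, with open symbols where the adjusted p was 0.05 or more, beside the median of all tested genes under each scaling. Only 2 genes have open symbols, RRAGD in TPM with and without the mitochondrially encoded genes and DEPDC5 under quantile normalization.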

How the data were processed

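Poly(A)-selected RNA of 6 libraries was sequenced. The authors deposited log2 FPKM per gene, with an offset added. FastQC 0.11.7 and GRCh38 are named per the submitters' processing notes, and the aligner, counter, annotation and gene filter are not given in the sources used here. Columns were matched to samples by title, and the description of Cont replicate 1 names the column of replicate 2, which leaves the groups as they are.

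Deposited log2 values were turned back into FPKM. limma 3.58.1 (R 4.3.3) was run on log2(FPKM + 1) with trend, two-sided, with Benjamini-Hochberg adjustment over 11526 genes, those that reached FPKM 1 in 3 or more libraries (the other 1591 were not tested). SESN3, CASTOR2, FOXO1, TP63 and DDIT4L reached FPKM 1 in the Dox libraries alone. SESN1 reached it in the Dox libraries and, among the Cont libraries, in replicate 2 only. All of these genes passed only through Dox, so their calls are not independent of this filter. The gene set was kept when a library was left out or rescaled. On simulated data with 11526 genes the Dox against Cont fit recovered 92% of changes of 1 and 54% of changes of 0.5 in log2, with 10 false calls. Only 100 genes were changed at each size there, against 9265 called in the data. The adjusted p threshold was therefore stricter in the simulation, and these shares do not give the recovery in the data. Reads came from the single scale that gave whole numbers in all 6 libraries. A fragment may count as a pair of reads, and reads carry no molecular identifiers, so they show counting precision only. Coordinates are from GENCODE 29 (GRCh38), and sequences from RefSeq.

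The members, lists, ratios and motifs were chosen with earlier results of these data known. Named were the 10 genes, genes of the pathway lists, and 3 genes of most similar profile for each of the 2 largest changes. Some genes of the pathway lists are in the counts and are not reported here. The motifs were chosen after the windows had been read. Alternatives were the pseudocount, the filter, the scaling, the moderation, the replicate block and leaving out each library.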

Additional observations from a re-analysis of the deposited data

How the results depend on the processing

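Counts of calls were within 1.5 times those reported, except that 1 of the 10 genes was lower in TPM and in TPM without mitochondrially encoded genes, that 1 to 2 were lower when a library was left out (1 without Cont replicate 3 and 1 without Dox replicate 2), and that 13 pathway genes were lower in TPM without mitochondrially encoded genes. Over 18 alternatives none of the 10 genes changed direction; the calls of RRAGD and DEPDC5 ended as described, and SESN3 and DEPDC5 could not be tested with a filter at FPKM 5. Signs turned for pathway genes near 0. In TPM without mitochondrially encoded genes KPTN was at 0.0128, SLC38A9 at 0.231, FBXW5 at 0.0526, RPTOR at 0.13, MITF at 0.14 and NFE2L2 at 0.15. Under quantile normalization TBC1D7 was at -0.0448, RPTOR at 0.0361, NFE2L2 at 0.16 and DDIT4 at -0.11. SLC38A9 was at 0.0841 in TPM and 0.0441 with median-of-ratios scaling. With 1 library left out SLC38A9 ranged from -0.11 to 0.0869, DDIT4 from -0.00864 to 0.39 and TBC1D7 from -0.025 to 0.13. The cause was not tested. The 4 ratios kept their sign in every alternative, but their exact permutation test cannot pass at this number of libraries.

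The replicate numbers pair the samples only by name: the deviations of same-numbered Cont and Dox libraries correlated at 0.04, -0.00483 and 0.08, and 3 of 6 libraries correlated best with their own number. With the replicate block 9272 genes were called against 9265, 8 of the 10 genes were higher and 2 lower, 18 pathway genes were higher and 24 lower, and the ratios were the same (log2 differences -1.38, 3.15, 5.09 and -0.29). Depth limits SESN3 in Cont, where 5 to 12 reads were counted.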
